A study of Mus musculus with 24 samples.

Results

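The 109 rows described here were the ribosomal protein genes and the pseudogene copies that carry their names, among the 14159 rows with a gene symbol in a bulk RNA sequencing table of mouse quadriceps muscle. A row was taken when its symbol consisted of Rpl or Rps with a number, Rplp0 to Rplp2 or Rpsa, with or without a "-ps" ending, and the 8 rows of the Rps6k kinases were left out. Of these rows, 88 had no -ps in the symbol and 21 had it. The annotation listed 87 of the 109 as protein coding, 19 as processed pseudogenes and 3 as transcribed processed pseudogenes, and all 109 had a position in GRCm39. One protein-coding row, Rps19bp1, matched the pattern although its product binds a ribosomal protein and is not one. A parent gene and its -ps copies were treated as 1 family, whose linear CPM (counts scaled to the library's size) were summed. This gave 88 families, 16 of which held a -ps row.

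The study compared C57BL/6J (B6) mice with MRL/MpJ (MRL) mice, a strain known for closing ear punch wounds, in a model of volumetric muscle loss. The mice were females of 6 to 8 weeks at surgery, and a piece of 3 mm × 3 mm was cut from the quadriceps. The gap received saline, decellularized extracellular matrix from pig small intestine submucosa (ECM) or polyethylene powder (PE), and the muscle was collected 21 days later. Uninjured muscle of each strain was the fourth condition, which gave 8 groups with 3 libraries each. Both strains are inbred, and the labels name no engineered allele. The study describes the libraries as independent samples of whole muscle, the labels do not tie them to animals, and p-values here measure the spread between these libraries.

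All 8 skeletal muscle fibre genes of a marker list, among them those of the contractile apparatus, were in the table, but the libraries did not all resemble the others of their group. In the PE-treated MRL library 2, the summed CPM of these genes was 34250, against 134961 and 135070 in the other PE-treated MRL libraries, and the summed CPM of 5 fibroblast genes was 12665, against 1468 and 2038. In the saline-treated B6 library 3 the fibre genes summed to 106152, against 146550 and 206926. Counts and PE or saline differences that moved by over 1.5 times without either of these libraries are given with and without it. Other libraries also stood apart. The fibroblast genes summed to 4260 in the saline-treated MRL library 1, against 1033 and 1204. In the ECM-treated B6 library 3 the fibre genes summed to 106171, against 156318 and 158060. In bulk muscle, fewer cells of a type and less RNA per cell cannot be told apart. Differences between strains were tested with limma at each treatment and as the mean over the 4 treatments, and a row was called when its p-value, adjusted over all 14159 rows by the method of Benjamini and Hochberg, was under 0.05.

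The ribosome is built from a small and a large subunit, each a core of ribosomal RNA dressed with ribosomal proteins. Proteins of the small subunit are named RPS and those of the large subunit RPL, and the acidic proteins RPLP0, RPLP1 and RPLP2 form the stalk on which translation factors act. Mammalian genomes hold many processed pseudogenes of these genes, which arose when a spliced mRNA was copied back into DNA and inserted elsewhere without introns. Such copies can be nearly identical to the mRNA of the parent gene, and short reads from one can then be assigned to the other. RPL3L is a paralog of RPL3 that is made mainly in skeletal and cardiac muscle.

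Several parents and copies differ at only a few bases. The first 6 pairs below were chosen because the copy was called higher in MRL, and in all of them but Rps3a2 the copy exceeded its parent in MRL libraries. Each pair shows 60 bases of the coding sequence, 5′ to 3′ on the gene's own strand, from the GRCm39 genome with the GENCODE M39 annotation, and capitals mark the bases that differ between parent and copy. Rpl3 is shown at chr15:79966701-79966760 (minus strand) and Rpl3-ps1 at chrX:13068837-13068896 (plus strand), and over the whole coding sequence they differed at 2 of 1209 bases.
Rpl3: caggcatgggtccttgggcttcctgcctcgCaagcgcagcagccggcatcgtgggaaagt
Rpl3-ps1: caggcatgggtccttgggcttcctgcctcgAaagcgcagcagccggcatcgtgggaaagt
Rpl14 is shown at chr9:120403346-120403405 (plus) and Rpl14-ps1 at chr7:44974925-44974984 (plus), which differed at 4 of 648 bases.
Rpl14: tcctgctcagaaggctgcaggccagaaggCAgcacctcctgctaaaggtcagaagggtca
Rpl14-ps1: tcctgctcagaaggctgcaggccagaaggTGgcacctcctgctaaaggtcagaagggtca
Rpl34 is shown at chr3:130522704-130522763 (minus) and Rpl34-ps1 at chr6:71101695-71101754 (plus), which differed at 2 of 351 bases.
Rpl34: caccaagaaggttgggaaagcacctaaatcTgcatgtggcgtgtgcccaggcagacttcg
Rpl34-ps1: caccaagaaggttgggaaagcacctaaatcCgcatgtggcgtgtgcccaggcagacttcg
Rps18 is shown at chr17:34171195-34171254 (minus) and Gm10260, a copy without -ps in its symbol, at chr13:97896714-97896773 (minus), which differed at 4 of 456 bases.
Rps18: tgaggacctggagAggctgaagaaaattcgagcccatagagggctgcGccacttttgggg
Gm10260: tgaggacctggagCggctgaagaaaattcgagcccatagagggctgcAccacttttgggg
Rps7 is shown at chr12:28685588-28685647 (minus) and its copy Gm6472 at chrX:151693051-151693110 (minus), which differed at 3 of 582 bases.
Rps7: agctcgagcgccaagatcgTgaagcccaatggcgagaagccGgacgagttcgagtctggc
Gm6472: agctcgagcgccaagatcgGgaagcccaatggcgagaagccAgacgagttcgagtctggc
Rps3a1 is shown at chr3:86045790-86045849 (minus) and its copy Rps3a2 at chr14:88360572-88360631 (minus), which differed at 4 of 792 bases.
Rps3a1: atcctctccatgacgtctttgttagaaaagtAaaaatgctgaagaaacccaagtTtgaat
Rps3a2: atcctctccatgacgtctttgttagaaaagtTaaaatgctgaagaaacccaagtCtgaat
The last pair is shown because its coding sequences did not differ. The first 60 coding bases of Rpl15, at chr14:4199246-4199305 (plus), and of Rpl15-ps3, at chr9:22097458-22097517 (minus), were the same, as were all 612.
Rpl15: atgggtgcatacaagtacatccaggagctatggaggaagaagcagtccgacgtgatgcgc
Rpl15-ps3: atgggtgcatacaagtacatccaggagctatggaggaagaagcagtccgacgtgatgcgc

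The authors assigned reads with kallisto, which divides reads shared by several transcripts among them, to transcripts of GRCm39. That is the genome of C57BL/6J, and no MRL/MpJ sequence was used here. The values of near-identical rows are therefore uncertain one by one, and how much of the difference in any such row came from the division of reads was not tested. Sums over a family are given beside the single rows for that reason, and they cover only copies that are rows of the table.

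A larger share of ribosomal protein rows than of all rows was called between the strains. In the mean over the 4 treatments, 43 of the 109 rows were called, 13 of them higher and 30 lower in MRL, where 15.2% of all rows were called, 7.37% higher and 7.87% lower. Of the 88 rows without -ps, 1 was higher and 26 were lower, and of the 21 rows with -ps, 12 were higher and 4 were lower. Some copies, such as Rpl15-ps2, passed the authors' filter, a CPM over 1 in at least 3 libraries, only through MRL. That filter partly set the share of copies called higher. At single treatments, 27 rows were called in uninjured muscle (background 2.6%), 27 after saline (background 2.51%), 29 after ECM (background 2.66%) and 29 after PE (background 3.35%). Without the PE-treated MRL library 2 the count was 57 after PE and 75 in the mean, and 24.6% and 32.7% of all rows were then called. The 3 MRL libraries lay wholly above or below the 3 B6 libraries for 38 members in uninjured muscle (background 21.8%), 52 after saline (background 15.2%), 54 after ECM (background 25.8%) and 42 after PE (background 17.5%). Without the MRL PE library 2, 94 members and 60.1% of all rows did not overlap after PE.

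The lower rows at single treatments were nearly the same each time. In uninjured and saline-treated muscle they were Rpl15-ps3, Rps2, Rpl29, Rps18, Rplp0, Rpl3, Rpl34, Rps7, Rpl14, Rpl26, Rpl35a, Rpl21, Rpl15, Rpl30 and Rpsa, and Rps3a1 joined them after ECM and after PE. The higher rows were Rps3a2, Rps2-ps10, Rpl3-ps1, Rpl34-ps1, Rpl15-ps2, Rps18-ps3, Rpsa-ps2, Rpl27-ps3 and the 4 rows of Rpl35a-ps2, Rpl35a-ps3, Rpl35a-ps4 and Rpl35a-ps6, joined by Rpl14-ps1 after ECM and after PE. Those 4 Rpl35a copies had identical transcripts and equal values in every library, so they hold 1 measurement. Across treatments, 12 rows were higher in all 12 MRL libraries than in all 12 B6 libraries, 15 were lower, and 82 overlapped, where 1.44% of all rows did not overlap.

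Summing each family reduced the higher calls to 1. In the mean over treatments, 29 of the 88 summed families were called, 1 higher and 28 lower (background 15.1% of the table with sums), and the higher one was Rps3a2, which the symbol rule does not join to Rps3a1. At single treatments 12, 14, 14 and 13 families were called in uninjured, saline, ECM and PE muscle, against backgrounds of 2.47%, 2.4%, 2.53% and 3.14%. Each time Rps3a2 was the higher family and all others were lower. Without the PE-treated MRL library 2 the count of families was 42 after PE and 59 in the mean, where 24.5% and 32.7% of the table were then called.

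The summed CPM of all 109 rows was lower in the MRL group mean at every treatment. In uninjured muscle it was 11508 ± 728 CPM in B6 and 9824 ± 832 in MRL (SD, n = 3). After saline it was 13951 ± 3139 and 9497 ± 391, after ECM 13788 ± 667 and 10270 ± 1037, and after PE 14051 ± 826 and 10269 ± 2012. The B6 group mean was 1.17-fold, 1.47-fold, 1.34-fold and 1.37-fold the MRL mean at those 4 treatments. The saline value rested in part on the B6 library 3, at 17565 CPM, and the log2 ratio of MRL over B6 moved from -0.55 to -0.35 without it. After PE the log2 ratio was -0.45, and -0.62 without the MRL library 2. These rows held 0.801% to 2.03% of a library. The -ps rows took 2.04% to 3.10% of the summed CPM in B6 libraries and 8.33% to 9.69% in MRL libraries, and the 2 ranges did not overlap. The sum leaves out near-identical rows of other symbols. In uninjured muscle, 15 parents with copies called higher in MRL held 2876 to 3274 CPM in B6 and 650 to 734 CPM in MRL. Their 24 copies with 1 to 12 differing bases, partly outside the sum, held 37.0 to 48.0 and 916 to 1066 CPM. There, 56 members of families without a -ps row or a near-identical row outside the 109 had a median difference of -0.01. How much of the drop lay in families with copies was not tested.

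**Figure D1:**
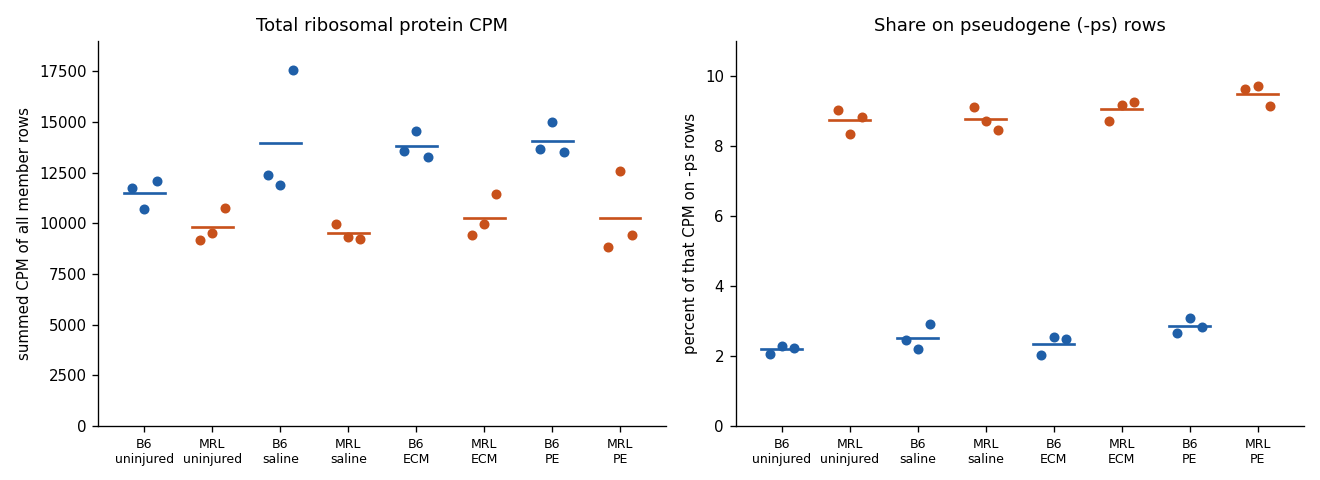
Summed CPM of the 109 ribosomal protein rows in each of the 24 libraries, by group, and the percent of that sum on rows with -ps in the symbol; blue points are B6 and orange points MRL. The B6 saline library at 17565 CPM and the MRL PE library at 12566 CPM sit above the others of their group, and the -ps share was at most 3.10% in B6 and at least 8.33% in MRL.

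Among the small subunit proteins, Rps2 showed the largest drop of a parent gene. RPS2 lies near the mRNA entry channel of the small subunit. The Rps2 row (17:24937080-24940904, plus strand) was at 702, 575 and 714 CPM in the uninjured B6 libraries and at 11.2, 2.70 and 7.77 CPM in the uninjured MRL libraries. After saline it was at 620, 705 and 817 CPM in B6 and at 5.08, 7.07 and 4.10 CPM in MRL. All B6 values lay far above all MRL values. Over all treatments the B6 libraries ran from 516 to 817 CPM with a median of 678, and the MRL libraries from 2.70 to 52.4 with a median of 7.97. The mean difference was -6.37 (log2, SE 0.28, adjusted p = 1.1e-12). The MRL value of 52.4 came from the PE library 2, the next highest MRL value was 11.2, and the difference after PE went from -5.37 to -6.34 without that library.

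The copy Rps2-ps10, on chromosome 18 and 99.4% identical to Rps2, had the reverse pattern. It was at 1.37 to 14.4 CPM in B6 libraries with a median of 9.50, and at 366 to 520 CPM in MRL libraries with a median of 416. Its mean difference was 5.87 (SE 0.26, adjusted p = 1.1e-12). The parent held 98.7% of the family's CPM in the median B6 library and 1.69% in the median MRL library. Summed, the family was at 526 to 831 CPM in B6 and at 375 to 528 CPM in MRL. The sum was lower in MRL by a mean log2 difference of -0.62 (SE 0.08, adjusted p = 1.9e-05), so the family kept the direction of the parent at a small part of its size.

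Rps18 and Rps7 behaved alike, with copies that the -ps rule does not catch. RPS18 sits at the head of the small subunit. Rps18 (17:34170972-34175057, minus strand) was at 113 to 269 CPM in B6 libraries and at 3.42 to 19.3 CPM in MRL libraries, with medians of 152 and 5.17. Its difference was -4.73 (SE 0.19, adjusted p = 2.0e-13). Gm10260 was at 0.30 to 5.0 CPM in B6 and at 68.0 to 86.0 CPM in MRL. Rps18-ps3 was at 0 to 0.455 CPM in B6 and at 3.14 to 5.27 CPM in MRL. With both copies added, the B6 mean was 160 CPM and the MRL mean 85.2 CPM, a difference of -0.89 (SE 0.09, adjusted p = 5.7e-07). For Rps7 (12:28677933-28686292, minus strand), another protein of the small subunit, the B6 libraries ran from 129 to 198 CPM and the MRL libraries from 9.48 to 26.0 CPM. Gm6472 ran from 0 to 4.31 CPM in B6 and from 38.1 to 65.2 CPM in MRL. The Rps7 row differed by -3.44 (SE 0.11), and the sum with Gm6472 by -1.36 (SE 0.08), from 159 CPM in B6 to 62.2 CPM in MRL.

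Rps3a1, which encodes a small subunit protein that also contacts initiation factors, was at 298 to 523 CPM in B6 and at 226 to 391 CPM in MRL. It was called lower in the mean (-0.66, SE 0.10, adjusted p = 6.8e-05). Rps3a2, annotated as a processed pseudogene at 14:88360453-88361244, reached at most 0.778 CPM in any B6 library and was at 33.2 to 63.4 CPM in the MRL libraries. It was the only row without -ps that was called higher (7.31, SE 0.27, adjusted p = 7.3e-14). Joined with Rps3a1, a sum chosen after the values were seen, the mean was 301 CPM in MRL and 412 CPM in B6. Rpsa, the gene of the small subunit protein also known as a laminin receptor precursor, was at 238 to 431 CPM in B6 and at 138 to 214 CPM in MRL, a difference of -0.86 (SE 0.09, adjusted p = 7.6e-07). Its copy Rpsa-ps2 was at 0 to 0.177 CPM in B6 and at 1.27 to 2.31 CPM in MRL and was called higher, and the sum of both differed by -0.84 (SE 0.09).

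The Rps16 and Rps23 families divided their CPM alike in both strains. Rps16 held 83.9% of its family in the median B6 library and 85.5% in the median MRL library, and Rps23 held 58.2% and 58.1%. RPS23 is a protein of the decoding centre. The Rps16 row differed by -0.27 (adjusted p = 0.057) and the Rps23 row by -0.26 (adjusted p = 0.052), neither past the threshold. Their sums were called, at -0.31 (adjusted p = 0.046) for Rps16 and -0.30 (adjusted p = 0.041) for Rps23. Rps16-ps2 (-0.57, adjusted p = 0.019) and Rps23-ps (-0.35, adjusted p = 0.041) have the same coding bases as their parents and were called lower with them. Rps16-ps3, with 38 differing coding bases, was at 0.62 and not called (adjusted p = 0.074).

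Other small subunit genes differed by less. Chosen after their values were seen, Rps9 was lower by a difference of -0.42 and Rps27a by -0.36, both called in the mean. RPS27A is made as a fusion with ubiquitin. Rps9 was at 152 to 284 CPM in B6 and at 133 to 222 CPM in MRL, so the strains overlapped. Rps14 (-0.32, adjusted p = 0.051) and Rps4x (-0.17, adjusted p = 0.15), among the 10 rows with the highest CPM, were not called. Over the 36 rows without -ps whose symbols begin with Rps, 1 was called higher and 10 lower in the mean, where 7.37% of all rows were called higher and 7.87% lower. These rows include Rps19bp1 and the pseudogene Rps3a2, which was the 1 called higher. Their median was -0.27, where the median of all 14159 rows was -0.01.

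**Figure D2:**
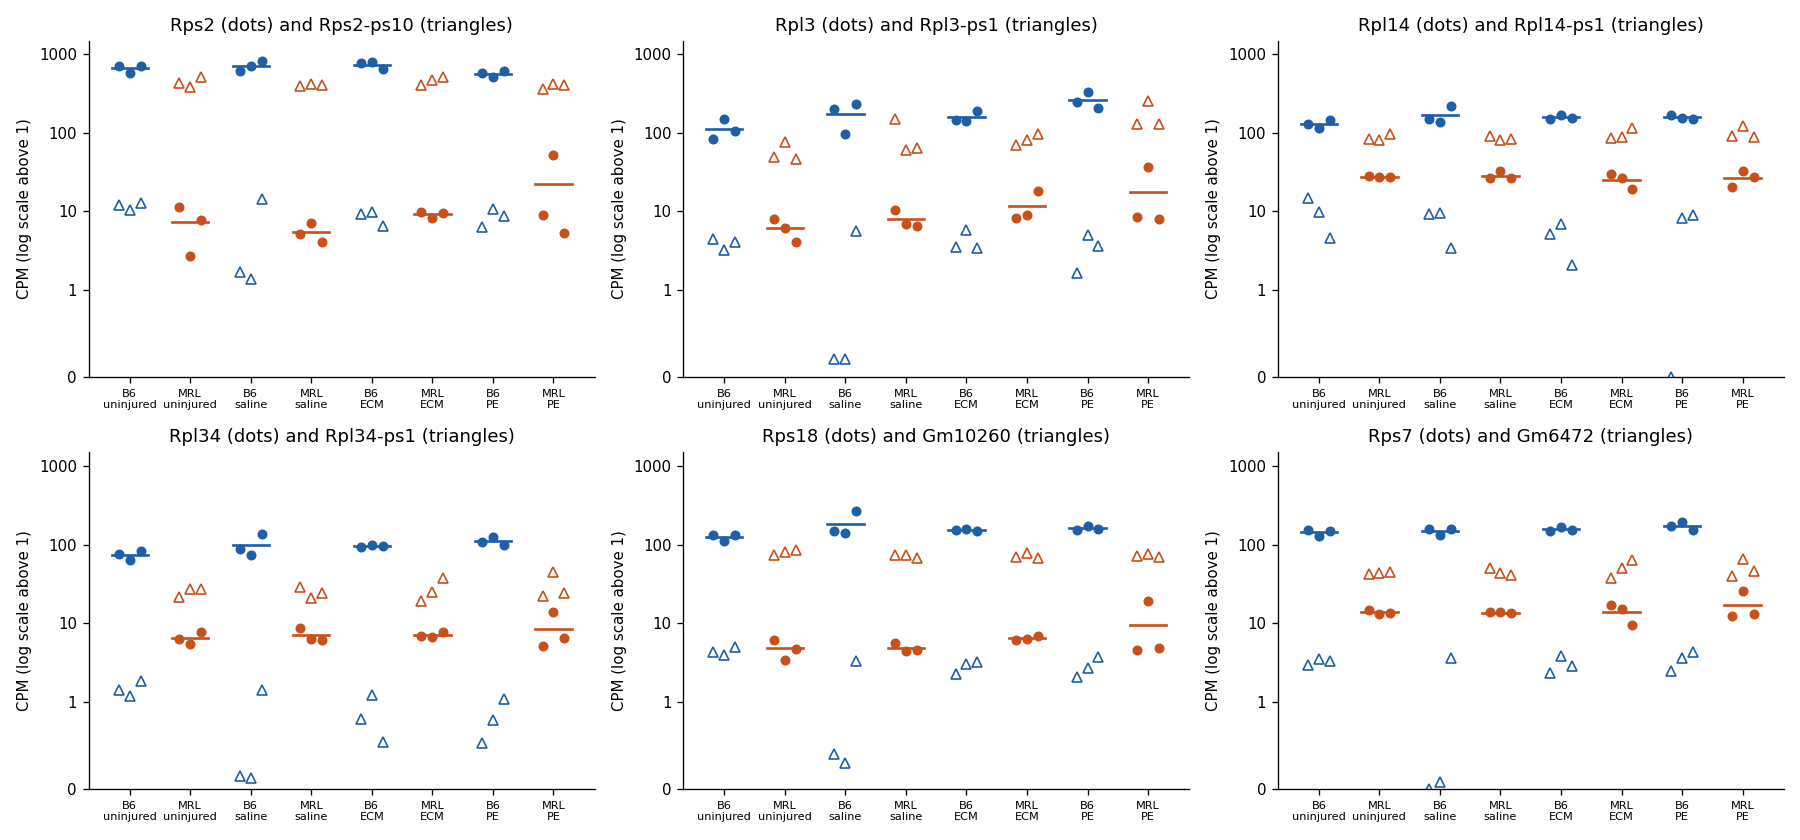
CPM of a parent gene (dots, with bars at the group mean) and of a copy (triangles) in each of the 24 libraries for Rps2, Rpl3, Rpl14, Rpl34, Rps18 and Rps7, by group, on a scale that is logarithmic above 1 CPM; blue is B6 and orange MRL. In all 6 panels the parent lay above the copy in every B6 library and below it in every MRL library.

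Of the large subunit genes, Rpl29 had the largest drop. RPL29 is a small basic protein of the large subunit. Rpl29 (9:106306586-106311297, plus strand) was at 99.9 to 159 CPM in B6 libraries and at 1.48 to 10.5 CPM in MRL libraries, with medians of 114 and 2.57. The difference was -5.33 (SE 0.19, adjusted p = 6.2e-14). No row with Rpl29-ps in its name was in the table, but 4 other rows were near-identical to it. Of these, Gm13841 and Gm8210 had equal values, at most 0.922 CPM in B6 and 18.5 to 25.7 CPM in MRL. With the 4 rows added, the sums were 103 to 162 CPM in B6 and 41.2 to 55.4 CPM in MRL, a difference of -1.29 (SE 0.07).

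Rpl3, Rpl14 and Rpl34 each had 1 -ps copy that exceeded the parent in MRL. RPL3 lies next to the peptidyl transferase centre. The Rpl3 row (15:79961825-79976069, minus strand) ran from 83.6 to 334 CPM in B6 and from 4.04 to 36.7 CPM in MRL, a difference of -4.17 (SE 0.24, adjusted p = 5.4e-11). Rpl3-ps1 ran from 0.205 to 5.75 CPM in B6 and from 46.1 to 252 CPM in MRL (5.13, SE 0.38, adjusted p = 4.2e-09). The summed family overlapped between the strains, at 88.1 to 339 CPM in B6 and 50.1 to 289 CPM in MRL, and its mean difference was -0.78 (SE 0.19, adjusted p = 0.0076).

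RPL14 is a protein of the large subunit. The Rpl14 row (9:120400489-120403866, plus strand) was at 115 to 222 CPM in B6 and at 19.2 to 32.6 CPM in MRL, a difference of -2.50 (SE 0.10). Rpl14-ps1 was at 0 to 14.7 CPM in B6 and at 81.4 to 124 CPM in MRL (4.30, SE 0.56). The sum went from 161 CPM in B6 to 119 CPM in MRL, a difference of -0.42 (SE 0.08, adjusted p = 0.00074). For Rpl34 (3:130519106-130524155, minus strand), the parent was at 64.9 to 136 CPM in B6 and at 5.17 to 13.8 CPM in MRL, a difference of -3.71 (SE 0.14). Rpl34-ps1 was at 0.123 to 1.86 CPM in B6 and at 19.4 to 44.4 CPM in MRL (4.98, SE 0.27). The sum differed by -1.5 (SE 0.13), from 96.0 to 34.2 CPM, so a larger part of the difference remained than for Rpl14.

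The Rpl15 family had copies that went both ways. RPL15 is a core protein of the large subunit. Rpl15 (14:4198250-4201887, plus strand) was at 146 to 214 CPM in B6 and at 54.0 to 82.1 CPM in MRL, a difference of -1.40 (SE 0.07). Rpl15-ps3 (9:22096903-22097517, minus strand) was at 18.9 to 67.2 CPM in the B6 libraries and was listed at 0 in all 12 MRL libraries, and it was called lower. Rpl15-ps2 was at 0 to 0.172 CPM in B6 and at 1.78 to 3.59 CPM in MRL, and it was called higher. The family sum was at 194 to 279 CPM in B6 and at 56.6 to 85.4 CPM in MRL, a difference of -1.64, larger than that of the parent.

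Rpl35a, Rpl26, Rpl21 and Rpl30 kept a called difference of -0.91 or lower once copies were added. Rpl35a was at 79.2 to 161 CPM in B6 and at 18.5 to 34.8 CPM in MRL, a difference of -2.20, and -1.48 with all its copies. Its -ps copies were at 0.0165 to 0.252 CPM each in B6 and at 2.55 to 4.77 CPM each in MRL. Rpl26, a gene chosen after its values were seen whose protein sits near the exit tunnel, was at 114 to 220 CPM in B6 and at 22.2 to 40.0 CPM in MRL. It differed by -2.29, and by -1.17 with Gm15772, a copy at 0 to 0.527 CPM in B6 and 27.6 to 45.1 CPM in MRL. Rpl21, also chosen so, went from -2.06 to -1.17 with 3 near-identical rows. Rpl30 was at 70.0 to 131 CPM in B6 and at 21.3 to 38.3 CPM in MRL, with a difference of -1.70 that was -1.61 with Rpl30-ps9 and -0.91 with Gm12191 as well.

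Other large subunit families with copies showed small differences or none past the threshold. Rpl27 was lower (-0.58, SE 0.10, adjusted p = 0.00047), and Rpl27-ps3, listed at 0 in 11 of 12 B6 libraries and at up to 11.9 CPM in MRL, was called higher. Rpl28 was not called (0.11, adjusted p = 0.33, and -0.034 with equal library totals), and Rpl28-ps1 was called lower in the mean (-3.18, SE 1.02, adjusted p = 0.041). Rpl28-ps1 was listed at 0 in 3 B6 and 5 MRL libraries and reached 22.0 CPM in B6 and 8.51 CPM in MRL, with the strains overlapping. Rpl10 held 58.6% of its family in the median B6 library and 58.9% in the median MRL library, and Rpl31 held 66.7% and 65.0%. None of Rpl10 (-0.12, adjusted p = 0.43), Rpl10-ps3 (-0.15, adjusted p = 0.50), Rpl31 (-0.27, adjusted p = 0.12) and Rpl31-ps8 (-0.15, adjusted p = 0.34) was called. Neither Rpl19-ps1 (0.50, adjusted p = 0.18) nor Rpl30-ps9 (0.54, adjusted p = 0.69, and -0.054 without the saline library 2 of MRL) was called.

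For Rpl5 and Rpl12 most CPM lay on a copy in both strains. RPL5 binds the 5S ribosomal RNA. The Rpl5 row held 6.11% of its CPM in the median B6 library and 5.30% in the median MRL library, the rest being on Gm15500, whose coding sequence is the same. Alone, Rpl5 was called lower (-0.36, adjusted p = 0.038), and summed with Gm15500 it was at 278 CPM in B6 and 253 CPM in MRL and was not called (-0.14, adjusted p = 0.19). Rpl12 alone was not called (-0.34, adjusted p = 0.14), and with Gm10275 it was called (-0.36, adjusted p = 0.034). Over the 49 large subunit rows without -ps, the pseudogene Rpl37rt included, 0 were called higher and 14 lower in the mean (background 7.37% and 7.87%), with a median of -0.21.

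Of the 3 stalk genes, Rplp0 stood apart. RPLP0 anchors the stalk and the RPLP1 and RPLP2 dimers on it. Rplp0 (5:115694515-115701793, plus strand) was at 510 to 699 CPM in B6 libraries and at 18.4 to 66.5 CPM in MRL libraries, with medians of 592 and 29.6, and differed by -4.32 (SE 0.15, adjusted p = 5.1e-14). Its near-identical rows Gm8730 and Gm9625, with 12 and 24 of 951 coding bases differing, brought the MRL range to 33.7 to 86.7 CPM. With them the difference was -3.61 (SE 0.11), the largest of any summed family with a parent gene. Rplp2 was at 88.5 to 201 CPM in B6 and at 79.4 to 164 CPM in MRL, and was called lower (-0.41, adjusted p = 0.015). Rplp1 was at 220 to 375 CPM in B6 and at 205 to 333 CPM in MRL, and was not called (-0.24, adjusted p = 0.090).

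Over the 87 families with a parent in the table, sums over rows of the table brought the lowest values closer to the others. Near-identical genes that are not rows are missing from the sums. Besides Rps2-ps10, the annotation held 57 near-identical genes for Rps2, 0 of them rows. For Rpl29 it held 68, of which 4 were rows. How many reads went to absent copies was not tested. Alone, 13 parents differed by more than 1 on the log2 scale. With the -ps rows 10 did, and with the near-identical rows of other symbols 8 did. The lowest difference moved from -6.37 to -5.33 to -3.61, while the median stayed at -0.25, -0.24 and -0.23 and the highest at 0.22.

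**Figure D3:**
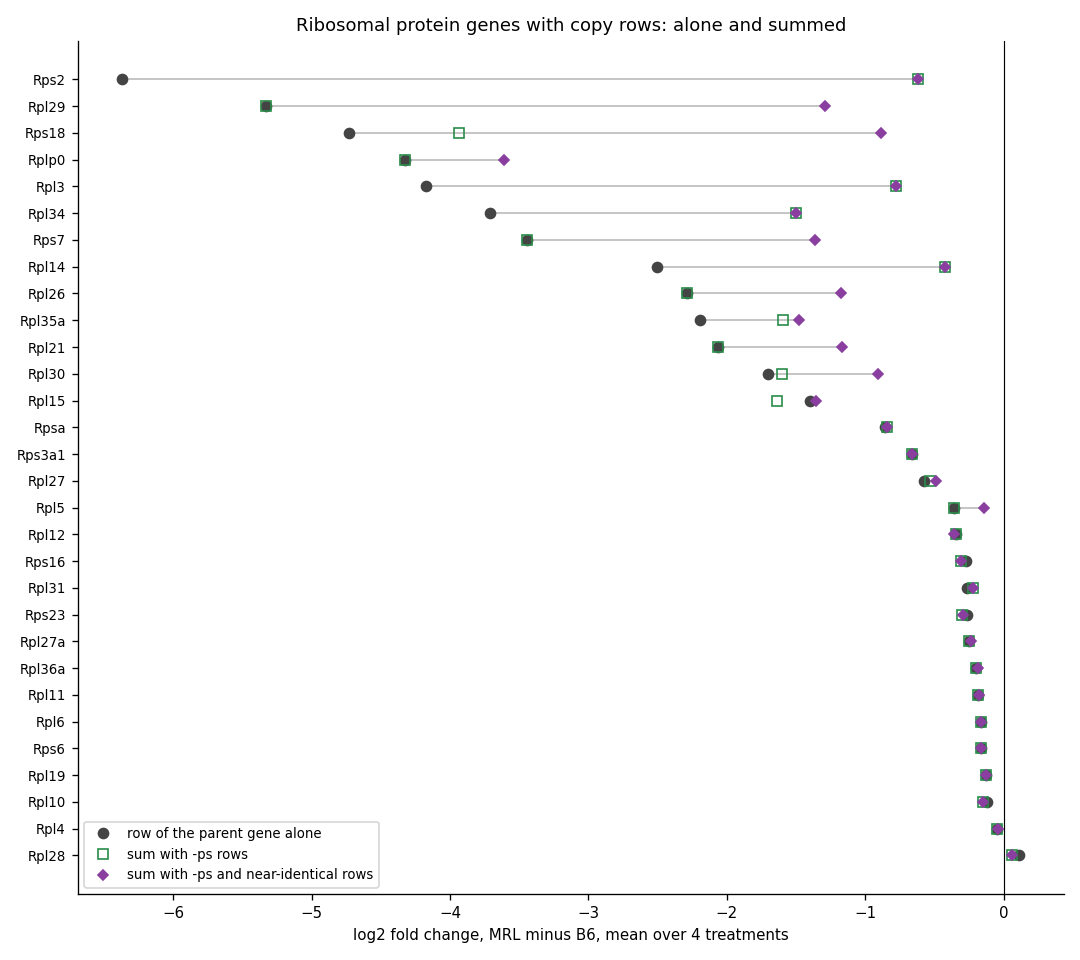
Mean log2 difference between MRL and B6 over the 4 treatments for 30 genes, for the parent row alone, for the sum with its -ps rows, and for the sum with near-identical rows of other symbols. Rps2 moved from -6.37 to -0.62 and Rps18 from -4.73 to -0.89, while Rplp0 moved only to -3.61.

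Among the copy rows in the table, calls higher in MRL fell mostly on those with 1 to 12 coding bases differing from the parent. Of the 7 -ps rows with the parent's own coding bases, 1 was called higher, 4 lower and 2 were not called. Of the 14 rows with 1 to 9 differing bases, Rps3a2 included, 12 were called higher and 2 were not called, against a background of 7.37% called higher. The 1 row with 38 differing bases was not called. Among the 26 near-identical rows of other symbols, 12 of the 16 with 1 to 12 differing bases were called higher and 4 were not called. With 0 differing bases 1 of 4 was higher and 1 lower, and with 21 to 41 differing bases 2 of 6 were higher. Some of these rows share values or a parent, and the counts describe the rows without a test. The table kept only genes with a CPM over 1 in at least 3 libraries, so copies low in both strains are absent. A copy near 0 in B6 was a row only because it was high enough in MRL. The shares called higher were thus partly set by that filter, and a link with differing bases was not tested.

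**Figure D4:**
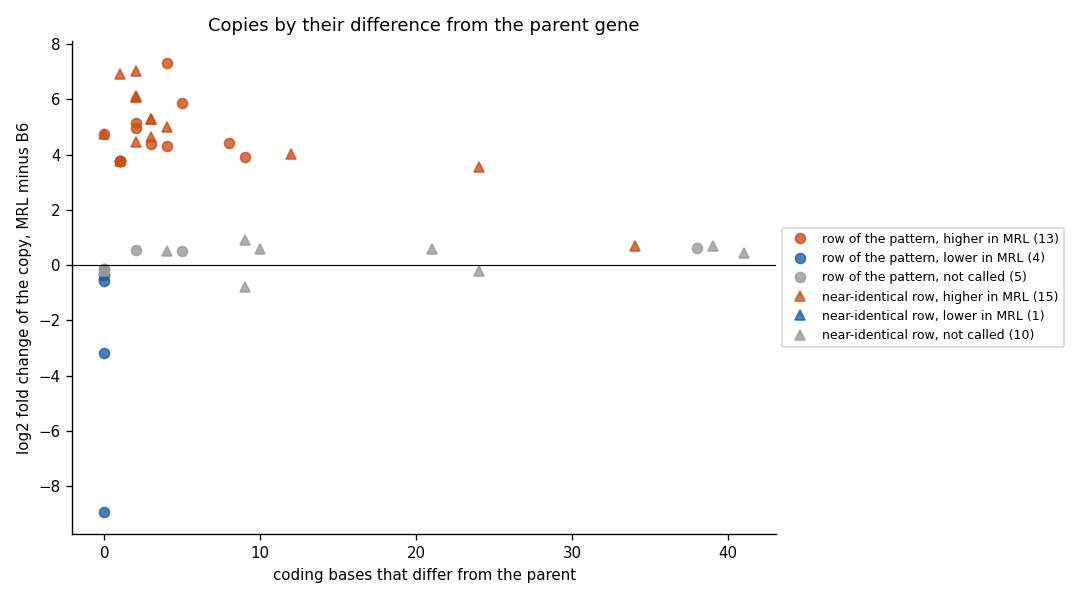
Mean log2 difference between MRL and B6 of each copy row against the number of coding bases at which it differs from its parent; circles are rows that the symbol rule takes, 13 higher, 4 lower and 5 not called, and triangles are near-identical rows of other symbols, 15 higher, 1 lower and 10 not called. The values over 3 lie at 1 to 24 differing bases, apart from those of Rpl27-ps3 and Gm11518 at 0.

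The copies also differed among B6 libraries. Of the 24 copy rows with 1 to 12 differing bases that were called higher in MRL, 13 were at or below all 10 other B6 libraries in both the saline libraries 1 and 2, a pair singled out after the values were seen. These rows were not all separate measurements. The Rpl35a -ps copies and Gm10243 shared their values, as did Gm13841 and Gm8210, and all of these had the pattern. Rps2-ps10 was at 1.70 and 1.37 CPM in the saline libraries 1 and 2 and at 14.4 CPM in the saline library 3. The 24 rows summed to 13.8 and 13.4 CPM there, to 38.5 CPM in the saline library 3, and to 17.95 to 48.0 CPM in the other B6 libraries. In 13 of the 15 parents of these rows, the PE library 2 was the highest of the 12 MRL libraries. That library was also the highest of them in the summed CPM of the 24 copies, at 1267, and in that of all members, at 12566. The counts of rows and parents are given without a test and without the share of all rows that had the same patterns.

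A set of 56 members, whose families had no -ps row and no near-identical row outside the 109, differed less than the families with copies. The set still held Rps27rt, which was near-identical to another member, and Rpl37rt, annotated as a transcribed processed pseudogene. None of the 56 was called by limma at any single treatment. In the mean 9 were called lower and 0 higher, where 7.87% of all rows were called lower and 7.37% higher. The differences were negative in 30 of these 56 in uninjured muscle, 54 after saline, 49 after ECM, 52 after PE and 52 in the mean, with medians of -0.01, -0.28, -0.24, -0.29 and -0.20. All 109 members had medians of -0.01, -0.31, -0.25, -0.29 and -0.20, and all rows of the table between -0.02 and 0.01. After saline the median of the 109 members was -0.11 without the B6 library 3, and after PE it was -0.47 without the MRL library 2. In uninjured muscle, 54 members had a positive and 55 a negative difference. Called among the larger differences, and named after their values were seen, were Rpl13a (-0.49, adjusted p = 0.034) and Rpl32 (-0.33, adjusted p = 0.013). Among the rows with the highest CPM, Rpl13 (-0.21, adjusted p = 0.062) and Rpl8 (-0.18, adjusted p = 0.085) were not called. Rpl4 (-0.05), outside the 56 because Gm5835 is near-identical to it, was not called either.

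Other genes of ribosome assembly and translation were read beside the members. Of 40 ribosome biogenesis genes, such as those of RNA polymerase I and of nucleolar processing factors, none was called at a single treatment (background 2.51% to 3.35%). In the mean 3 were higher and 6 lower, with a median of -0.01, where 7.37% of all rows were called higher and 7.87% lower. The higher ones were Nolc1 (2.47, SE 0.62), a nucleolar phosphoprotein, Polr1a (0.56), the largest subunit of RNA polymerase I, and Rrp9 (0.37). Nolc1 was listed at 0 CPM in all ECM-treated B6 libraries. The lower biogenesis genes included Polr1e (-0.62) and Nop2 (-0.34). Of 21 translation factors and other genes whose mRNA begins with a terminal oligopyrimidine tract, 5 were called lower and 0 higher in the mean (background 7.87% and 7.37%). Their median was -0.10. Among the lower genes were Eef1g (-0.81, adjusted p = 3.2e-07), Pabpc1 (-0.68), Fau (-0.43) and Eef1b2 (-0.38). Fau encodes a ribosomal protein fused to a ubiquitin-like protein. Eef1g, a subunit of the elongation factor 1 complex, was also lower at each single treatment, by differences of -0.73, -1.0, -0.65 and -0.86 in uninjured, saline, ECM and PE muscle.

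Most paralogs and tissue forms did not pass the threshold. Rpl22l1, the paralog of Rpl22, was lower (-0.59, adjusted p = 0.00091), at 24.1 to 45.4 CPM in B6 and at 17.0 to 29.4 CPM in MRL, and Rpl22 was not called (-0.10, adjusted p = 0.49). Rps4l, the paralog of Rps4x, was lower (-1.0, adjusted p = 0.0097), at 2.75 to 9.06 CPM in B6 and at 1.07 to 4.97 CPM in MRL. Rps27 (-0.09), Rps27l (-0.11), Rpl36a (-0.20), Rpl36al (-0.09), Rpl39 (-0.23), Rpl39l (-0.50) and Rpl7l1 (-0.14) were not called.

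Rpl3l, the muscle form of Rpl3, had no near-identical copy and did not differ between strains past the threshold. It lies at 17:24946751-24955119 on the plus strand, and ran from 130 to 569 CPM in B6 and from 95.2 to 634 CPM in MRL, with a mean difference of 0.19 (SE 0.20, adjusted p = 0.53). Per 1000 bases of transcript, it averaged 275 CPM in B6 and 320 CPM in MRL. The Rpl3 row alone averaged 132 and 8.01 CPM per 1000 bases.

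The PE-treated groups had the lowest Rpl3l in both strains. In B6, the PE libraries were at 265, 130 and 305 CPM, the saline libraries at 369, 569 and 303 CPM, the ECM libraries at 505, 514 and 333 CPM, and the uninjured libraries at 525, 336 and 535 CPM. In MRL, the PE libraries were at 311, 95.2 and 343 CPM, below all other MRL libraries, which ran from 374 to 634 CPM. In the main test no PE difference of Rpl3l was called. The values were -1.27 (adjusted p = 0.072) for PE minus ECM and -1.17 (adjusted p = 0.12) for PE minus saline in MRL, and -0.87 (adjusted p = 0.18) for PE minus saline in B6. For PE minus ECM in B6 the value was -1.01, and -1.25 to -0.64 with 1 library left out. Without the PE-treated MRL library 2, the MRL differences were -0.68 (adjusted p = 0.32) for PE minus ECM and -0.58 (adjusted p = 0.47) for PE minus saline. Without the PE-treated MRL library 3 they were -1.60 (adjusted p = 0.030), which was called, and -1.5 (adjusted p = 0.056). With array weights, Rpl3l was called for PE against ECM (-0.81 in B6 and -0.72 in MRL), for PE against saline (-0.49 and -0.73) and between the strains in the mean (0.28), where 39.4%, 16.3%, 68.1%, 23.3% and 56.9% of all rows were called.

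The sum of Rpl3 and Rpl3-ps1 lay the other way, at 268 ± 65.0 CPM after PE and 178 ± 73.5 CPM after saline in B6, and at 188 ± 87.4 and 99.2 ± 53.2 CPM in MRL (SD, n = 3). Those differences were not called either (0.66, adjusted p = 0.28, in B6 and 0.95, adjusted p = 0.15, in MRL), and without the MRL PE library 2 the MRL difference was 0.59 (adjusted p = 0.53). In the MRL saline library 1 that sum was 161 CPM, against 67.0 and 70.0 CPM in the other MRL saline libraries. The share of Rpl3l in the 2 genes, per length, averaged 78.3%, 67.9%, 71.8% and 44.9% in uninjured, saline, ECM and PE muscle of B6, and 88.9%, 82.1%, 84.1% and 54.3% in MRL, the last being 69.4% without the PE library 2. The share was not tested against the summed fibre genes. Within B6 it mostly rose with that sum. It was 50.2% at 113065 CPM (PE library 1), 63.5% at 146550 (saline library 1) and 82.4% at 195293 (uninjured library 3). The order was not strict, with 62.2% at 106171 CPM in the ECM library 3. In MRL it was 68.3% at 135070 CPM (PE library 1), 88.8% at 140352 (saline library 2) and 80.2% at 196214 (ECM library 3). The lowest shares, 23.9% and 26.7%, were those of the MRL PE library 2 and the B6 PE library 2, where the 8 fibre genes summed to 34250 and 58966 CPM and the 5 fibroblast genes to 12665 and 7464 CPM. The 6 macrophage genes detected summed to 1064 and 1407 CPM in them. The part of fibre content in the Rpl3l values was not tested.

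**Figure D5:**
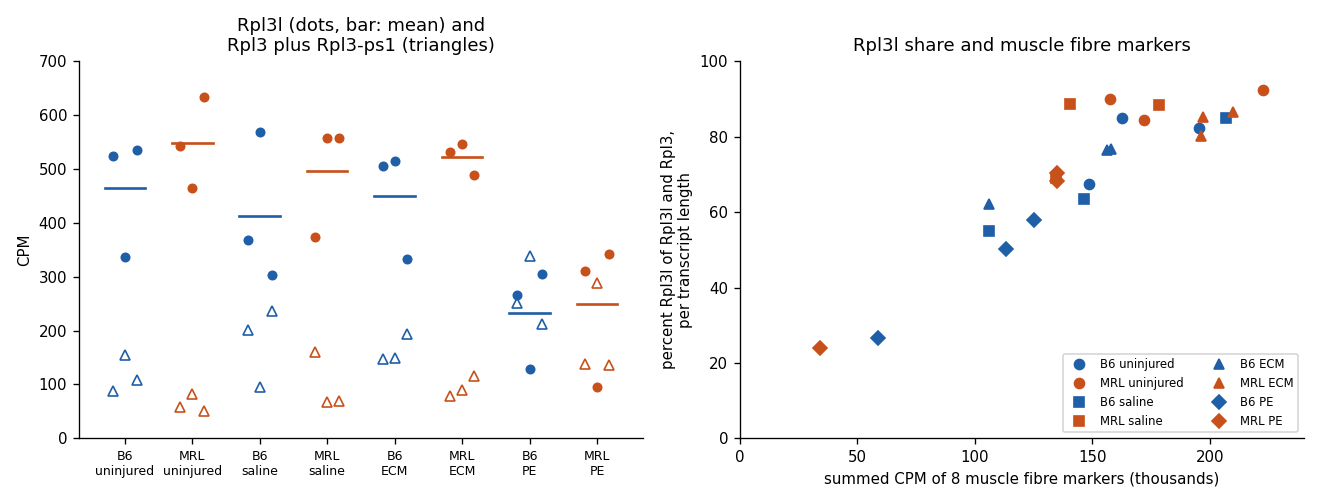
Left, CPM of Rpl3l (dots) and of the sum of Rpl3 and Rpl3-ps1 (triangles) in each library by group; right, percent of Rpl3l in the 2, per transcript length, against the summed CPM of 8 muscle fibre genes, with blue for B6 and orange for MRL. The 2 PE libraries with shares of 23.9% and 26.7% also have the lowest fibre sums.

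Injury and biomaterials changed no member past the threshold within a strain. With limma, 0 of 109 rows were called for saline against uninjured, ECM against saline, PE against saline or PE against ECM in either strain, where the backgrounds were 0%, 0.0283%, 5.97% and 0.226% in B6 and 0%, 0.00706%, 0% and 0% in MRL. At an unadjusted p under 0.05 there were 20, 7, 5 and 3 rows in B6 and 1, 1, 6 and 5 rows in MRL. With array weights, a fit whose weights did not converge, the counts were 24, 29, 74 and 22 rows in B6 and 0, 0, 6 and 3 rows in MRL, where 33.8%, 15.7%, 68.1% and 39.4% of all rows were called in B6 and 0%, 0.0918%, 23.3% and 16.3% in MRL. The tests of whether the strains responded differently also called 0 rows of the whole table (background 0%), with 14, 1 and 2 rows at an unadjusted p under 0.05 for saline against uninjured, ECM against saline and PE against saline, and 12, 4 and 27 with array weights, where 6.47%, 3.28% and 30.5% of all rows were called.

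In B6, saline against uninjured gave the most members on one side. There, 91 of 109 differences were positive, with a median of 0.27, and in MRL 47 were positive and 62 negative, with a median of -0.02. The B6 value rested on the saline library 3, without which 77 were positive and the median was 0.06. In that library the copies were higher than in the other saline libraries of B6, and without it Rps2-ps10 (-2.88), Rpl3-ps1 (-3.78) and Rpl34-ps1 (-2.83) were called lower after saline than in uninjured B6 muscle. The same 3 rows were then called higher after ECM (2.40, 3.87 and 2.04) and after PE (2.40, 3.47 and 1.97) than after saline. The shares of all rows called without the saline library 3 alone are not given here. With the MRL PE library 2 left out as well, 0.0706% of all rows were called for saline against uninjured, 0.177% for ECM against saline and 23.4% for PE against saline. These comparisons share the saline libraries 1 and 2 of B6, in which those copies were lowest. The library left out held the highest saline values of these copies in B6, so the calls rest on that choice and add no separate support. With all libraries 0 members were called.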

How the data were processed

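RNA from whole quadriceps muscle was polyA selected and sequenced in 24 libraries, 3 in each of 8 groups. The authors pseudoaligned reads with kallisto to Ensembl cDNA of GRCm39, summarised them per gene with tximport (lengthScaledTPM), kept genes with a CPM over 1 in at least 3 libraries, and scaled with TMM in edgeR. The deposited values are log2 CPM with a prior count of 2, which equals 0.0795 CPM, and linear CPM was recovered by subtracting it. Counts were not used here. The mean effective library size implied by the prior was 25149678 reads, so 3 reads correspond to 0.119 CPM, and CPM totals per library ran from 733112 to 1262288. One of 14160 rows had no symbol and was left out.

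Group means over all 24 libraries were fitted with limma 3.58.1 in R 4.3.3 (eBayes with trend, 2-sided). Families were summed on the linear scale and refitted within the whole table (14138 rows). Near-identical rows were found with BLAST 2.17.0 (identity of 90% or more, covering 50% or more of the shorter of the 2 transcripts) against GENCODE M39, in which 13126 symbols matched as they stood and 663 through an older symbol. Genes were named by rule: families with a -ps row, paralogs, the 10 rows with the highest mean CPM, and the called rows with the largest differences, 10 in each direction in the mean comparison and 3 in each other one. Members and lists were chosen with earlier results of these data known, and a few called genes are not reported here. On simulated data with 100 changed genes at each size among 14159, the uninjured comparison called 60% of log2 changes of 1.5 and 89% of 3, and the mean comparison 91% and 98%.

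Residuals of same-numbered B6 and MRL libraries correlated above 0.1 for all 3 numbers only after PE, at 0.105, 0.532 and 0.439; with the replicate number as a block, 29 members were called there, as without it.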

Additional observations from a re-analysis of the deposited data

How the results depend on the processing

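No called value changed sign under an alternative. Among values that were not called, Rpl28 went to -0.034 and its family sum to -0.086 with equal library totals, that sum to -0.035 with quantile normalization, and Rpl3 for PE against ECM in MRL to -0.20 with array weights. With 1 library left out, that Rpl3 value ran from -0.43, without the PE library 2 of MRL, to 0.67, and Rpl30-ps9 in the mean from -0.054, without the saline library 2 of MRL, to 0.85. Among the other values of named rows and sums, leaving out a library aside, 906 kept their side of the threshold, 51 passed it and 8 fell below it. With the replicate number as a block, which pairs libraries by label alone outside PE, 42 members were called in the mean and 27 in uninjured muscle, no count moved by over 1.5 times, Rps23-ps (adjusted p = 0.051) and the Rps16 sum (adjusted p = 0.056) lost their call, and Rps23 (adjusted p = 0.0498) gained one.

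Array weights, whose estimation did not converge and gave 56.3 to the PE library 1 of B6 and 0.0570 to the PE library 2 of MRL, moved the counts most. Members called between strains were then 65 after saline, 54 after ECM, 93 after PE and 96 in the mean, where 41.8%, 17.0%, 56.5% and 56.9% of all rows were called, and families 50, 39, 75 and 77. Within B6 they were 24 for saline against uninjured, 29 for ECM against saline, 74 for PE against saline and 22 for PE against ECM, within MRL 6 for PE against saline and 3 for PE against ECM, and between the strains' responses 12, 4 and 27 for saline, ECM and PE. Quantile normalization called 1 member, Rps3a2, for PE against saline in B6. Leaving out the saline library 3 of B6 and the PE library 2 of MRL, an alternative chosen after seeing the data, gave 77 members and 59 families after PE and 76 members and 60 families in the mean, where 28.9% and 30.2% of all rows were then called. With equal library totals the log2 ratio of summed CPM after ECM was -0.67, and the median difference of all rows shifted by -0.10 to -0.27.

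Leaving out 1 library at a time gave 25 to 26 members called in uninjured muscle, 26 to 31 after saline, 26 to 28 after ECM, 26 to 57 after PE and 37 to 75 in the mean, and 10 to 11, 13 to 20, 11 to 15, 11 to 42 and 23 to 59 families. Within B6 it gave 0 to 3 members for saline against uninjured, for ECM against saline and for PE against saline, within MRL 0 to 1 for PE against ECM, and 0 to 3, 0 to 2 and 0 to 1 for the strains' responses to saline, ECM and PE. For these within-strain and response counts the shares of all rows called are not given here. The highest counts came without the PE library 2 of MRL between strains and without the saline library 3 of B6 in the others, save PE against ECM in MRL, where 1 was called without the PE library 3. Without the saline library 2 of B6, Rpl15-ps3 and Rpl21 were called for saline against uninjured, and without the PE library 3 of B6, Rps3a2 for PE against saline. Rows under 0.119 CPM in a strain rest on fewer than 3 reads a library there.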
